A study of Mus musculus with 9 samples.

Results

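The effect of a cardiac reprogramming transgene was measured in mouse ventricles of a heart failure model (HFpEF, with preserved ejection fraction), by comparing libraries that differed in their labelled genotype alone. TTg_HF, with genotype Tcf21iCre/R26 tdTomato/MGTH2A, was set against Ctrl_HF, with genotype Tcf21iCre/R26 tdTomato. The members are 6 of the 9 bulk RNA-seq libraries, 3 in each group, and all 12670 genes that passed the low-count filter, of 49585 rows in the deposited table. The remaining 3 libraries, Ctrl, came from chow-fed animals of the Ctrl_HF genotype and entered the fit to help estimate the spread between replicates. All animals were male hybrids of C57BL/6 and ICR, and ventricles without atria and valves were taken at 15 weeks. TTg_HF and Ctrl_HF both received a diet with 60% of its kilocalories from fat, and L-NAME, a nitric oxide synthase inhibitor, at 1.0 g/L in the water. Tamoxifen, which activates the Cre, was injected in every group at 2 mg/day on 5 days in week 5.

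The letters of MGTH stand for Mef2c, Gata4, Tbx5 and Hand2, transcription factors of the embryonic heart that can push cultured mouse fibroblasts toward a cardiomyocyte-like state when expressed together. Tcf21 is a transcription factor of the fibroblast lineage, so a Cre made from that gene opens the transgene mainly in cells of that lineage and leaves cardiomyocytes largely untouched. Lineage-marked fibroblasts are a minority of the RNA in whole ventricle, and a change in a few cells is diluted in the measurement. Transgenic animals on chow were not analysed here, so the transgene and its interaction with the model cannot be told apart.

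The 6 libraries held 6743109 to 9364336 counts each, so that 1 count was worth 0.105 to 0.147 CPM (counts per 1e6 library counts). The labels do not say that each library came from a separate animal, so p-values measure the spread between these libraries, which may be partly technical. All 10 cardiomyocyte markers were tested, and their summed level was 52576 to 56167 CPM in Ctrl_HF and 53782 to 56906 CPM in TTg_HF. Myl7, the atrial myosin light chain, was at 0.586 to 7.18 CPM over the 6 libraries, in hearts whose atria had been removed. The 10 fibroblast markers summed to 2035 to 3072 CPM in Ctrl_HF and 2360.0 to 2584 CPM in TTg_HF. The Ctrl_HF libraries were uneven among themselves. On the first principal component of the 6 libraries, which held 42.2% of the variance, the TTg_HF libraries lay at -12.6, -19.3 and -24.6. Ctrl_HF replicate 1 lay at -6.37, next to them, while Ctrl_HF replicates 2 and 3 lay at 45.4 and 17.5.

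Tbx5, the T-box factor of the transgene, was at 103, 189.8 and 139.8 CPM in TTg_HF replicates 1 to 3, against 23.96, 20.2 and 27.1 CPM in Ctrl_HF. The groups did not overlap, and Tbx5 rose by 2.60 on the log2 scale, with an SE of 0.21 and an adjusted p of 0.00253 in edgeR's quasi-likelihood test. It lies at chr5:119832668-119885219 on the plus strand of GRCm38. Mef2c, a MADS-box factor, was at 141, 205 and 154 CPM in TTg_HF and 92.2, 97.8 and 107 CPM in Ctrl_HF. Gata4, which binds DNA through zinc fingers, was at 206, 241 and 197 CPM against 142, 139 and 147 CPM. Hand2, a basic helix-loop-helix factor, was at 18.5, 19.6 and 20.2 CPM against 11.1, 13.6 and 14.9 CPM. For each of these factors every TTg_HF library lay above every Ctrl_HF library, but the adjusted p missed 0.05, at 0.0635 for Mef2c, 0.0940 for Gata4 and 0.216 for Hand2 (log2 fold changes of 0.75, 0.59 and 0.55). Without Ctrl_HF replicate 1 the adjusted p was 0.0180 for Mef2c and 0.0356 for Gata4, in a fit where 665 genes (5.16%) passed. Their unadjusted p in the same test was higher there, at 0.000406 against 9.02e-05 for Mef2c and 0.00142 against 0.000442 for Gata4. The adjusted p thus fell without stronger evidence for either gene itself. Without Ctrl_HF replicate 2 or 3, or without TTg_HF replicate 2 or 3, 1 of the 4 factors passed. Counts per gene symbol cannot separate transcripts of the transgene from those of the endogenous genes. Tcf21, the driver, was at 4.40, 4.22 and 4.46 CPM in TTg_HF and 3.56, 4.68 and 4.17 CPM in Ctrl_HF, and the groups overlapped (log2 fold change 0.07, SE 0.24, adjusted p = 0.917).

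Across all genes the contrast was narrow. An adjusted p under 0.05 was reached by 11 of 12670 genes (0.0868%), of which 6 rose (0.0474%) and 5 fell (0.0395%). An unadjusted p under 0.05 was reached by 1807 genes (14.3%), 770 (6.08%) higher and 1037 (8.18%) lower in TTg_HF. All TTg_HF libraries lay above all Ctrl_HF libraries in 1179 genes (9.31%), and below them in 1208 (9.53%). The count of 11 rested on which libraries were in the fit. Without Ctrl_HF replicate 1 it was 665 of 12892 tested genes (5.16%). Without Ctrl_HF replicate 2 it was 18, and without Ctrl_HF replicate 3 it was 3. Without TTg_HF replicates 1, 2 and 3 it was 26, 2 and 5, and without Ctrl replicate 2 it was 5. All 11 genes were among the 665 called without Ctrl_HF replicate 1, the library that lay next to TTg_HF on the first component. DESeq2 called 339 genes (2.68%) on the same counts, limma-voom 4, and a fit of the 6 libraries alone 0. In that last fit 1624 genes still had an unadjusted p under 0.05.

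**Figure D1:**
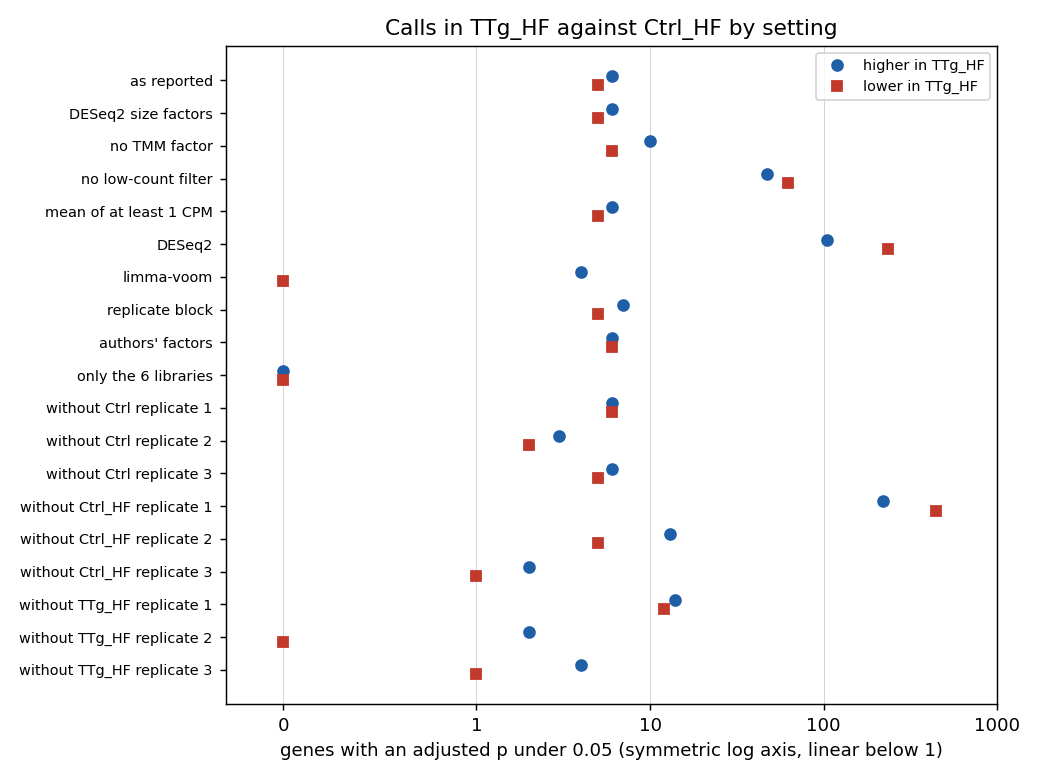
Number of genes with an adjusted p under 0.05 in TTg_HF against Ctrl_HF (horizontal, symmetric log axis) under each setting of the analysis (vertical), higher in TTg_HF as blue circles and lower as red squares. Leaving out Ctrl_HF replicate 1 gave 220 higher and 445 lower genes, against 6 and 5 as reported.

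**Figure D2:**
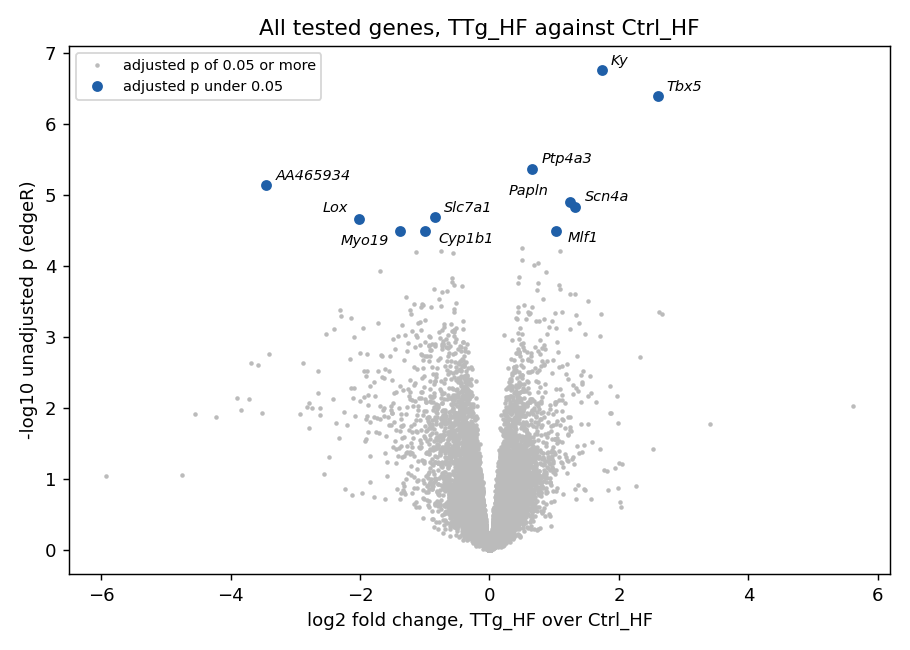
Log2 fold change of TTg_HF over Ctrl_HF (horizontal) against -log10 of the unadjusted p from edgeR (vertical) for the 12670 tested genes, with the 11 genes past the threshold in blue and named. Ky and Tbx5 have the lowest p-values, and many genes with larger fold changes than theirs stay below the threshold.

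Beside Tbx5, the rises were Ky, Scn4a, Mlf1, Papln and Ptp4a3. Ky encodes the kyphoscoliosis peptidase, a Z-disc protein whose loss gives mice a curved spine and weak muscle. It was at 19.9, 16.8 and 23.5 CPM in TTg_HF and at 6.30, 5.70 and 6.02 CPM in Ctrl_HF, a gap wider than the spread within either group. It rose by 1.73 (SE 0.15, adjusted p = 0.00217), to 20.05 ± 3.35 CPM (SD, n = 3), and lies at chr9:102505750-102546239 on the plus strand. In the chow-fed Ctrl libraries Ky was at 38.9, 42.7 and 37.4 CPM, so that TTg_HF stood between the other groups without reaching either.

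Scn4a, the pore subunit of the skeletal muscle sodium channel, was at 93.1, 105 and 117 CPM in TTg_HF and 51.8, 40.7 and 33.4 CPM in Ctrl_HF. It rose by 1.33 (SE 0.17, adjusted p = 0.0304) and lies at chr11:106318592-106353288 on the minus strand. The TTg_HF libraries also lay above the Ctrl range of 60.8 to 84.2 CPM. Of the 10 skeletal muscle markers 1 passed the filter, Acta1, the skeletal alpha-actin that the heart also makes, and it was at 312, 322 and 473 CPM in TTg_HF and 685, 1071 and 1377 CPM in Ctrl_HF. The other 9 markers, such as Myh4 and Myod1, were too low to be tested. Mlf1, myeloid leukaemia factor 1, a protein also made in striated muscle, was at 55.6, 71.7 and 83.1 CPM in TTg_HF and 33.8, 39.0 and 30.2 CPM in Ctrl_HF. It rose by 1.03 (SE 0.15, adjusted p = 0.0369), lies at chr3:67374097-67400003 on the plus strand, and stayed below the Ctrl libraries, at 91.2 to 113 CPM.

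Papln encodes papilin, an extracellular matrix glycoprotein related to the ADAMTS proteases. It was at 36.2, 30.9 and 28.6 CPM in TTg_HF and 16.3, 11.3 and 12.7 CPM in Ctrl_HF, and it rose by 1.24 (SE 0.17, adjusted p = 0.0304). The gene lies at chr12:83763634-83792382 on the plus strand, and all TTg_HF libraries were above the Ctrl range of 16.3 to 22.4 CPM. Ptp4a3, a small phosphatase known as PRL-3 and active in endothelial growth, was at 347, 352 and 298 CPM in TTg_HF and 209.6, 210.1 and 211 CPM in Ctrl_HF. It rose by 0.66 (SE 0.08, adjusted p = 0.0179), lies at chr15:73723145-73758766 on the plus strand, and was above the Ctrl range of 228 to 242 CPM as well. The step of Ptp4a3 was the smallest of the 11, and its Ctrl_HF libraries spanned only 209.6 to 211 CPM.

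The falls were Lox, Cyp1b1, Slc7a1 and a pair of genes on chromosome 11. Lox, lysyl oxidase, the enzyme that crosslinks collagen and elastin, was at 6.89, 7.17 and 2.93 CPM in TTg_HF and 17.5, 24.7 and 26.3 CPM in Ctrl_HF. It fell by 2.02 on the log2 scale (SE 0.28, adjusted p = 0.0345), and the TTg_HF libraries overlapped the Ctrl range of 5.08 to 6.10 CPM. Cyp1b1, a cytochrome P450 that oxidises oestrogens and arachidonic acid, was at 14.8, 16.2 and 11.8 CPM in TTg_HF and 28.1, 31.0 and 26.4 CPM in Ctrl_HF. It fell by 0.99 (SE 0.15, adjusted p = 0.0369) and lies at chr17:79701537-79715061 on the minus strand, and TTg_HF again overlapped Ctrl, at 10.01 to 12.7 CPM. Slc7a1, the cationic amino acid transporter that brings arginine into cells, was at 48.5, 46.3 and 45.2 CPM in TTg_HF and 90.0, 89.8 and 71.2 CPM in Ctrl_HF. It fell by 0.84 (SE 0.12, adjusted p = 0.0345), to just under the Ctrl range of 49.8 to 62.7 CPM, and lies at chr5:148327410-148399904 on the minus strand.

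**Figure D3:**
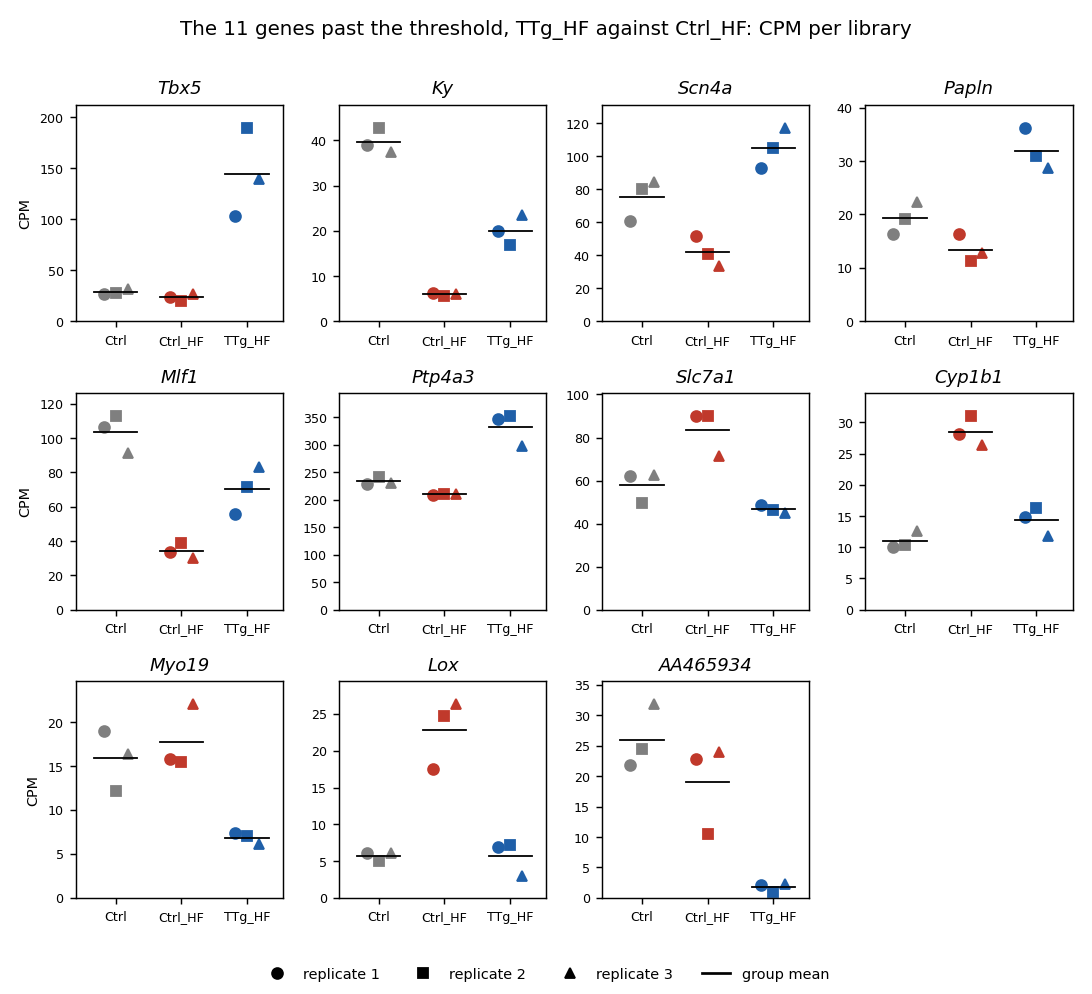
CPM per library (vertical, linear from 0) of the 11 genes past the threshold, in Ctrl, Ctrl_HF and TTg_HF (horizontal), with a marker shape for each replicate and a line at the group mean. In every panel the TTg_HF libraries lie wholly above or wholly below the Ctrl_HF libraries, and in Lox and Cyp1b1 they overlap the Ctrl libraries.

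The 11 calls were not equally stable over 18 alternative analyses. Tbx5 and Ky passed the threshold in 17 of them and missed it in the fit of the 6 libraries alone, with an adjusted p of 0.0600 each. Ptp4a3 passed in 15, AA465934, Papln and Slc7a1 in 12 each, Scn4a in 11 and Myo19 in 10. Lox and Mlf1 passed in 9 each, and Cyp1b1 in 8. Cyp1b1 was lost under limma-voom, under the replicate block, in the fit of the 6 libraries alone, and without any 1 of 7 libraries, with adjusted p-values up to 0.201. AA465934 was lost under limma-voom, in the fit of the 6 libraries alone, and without Ctrl replicate 2, Ctrl_HF replicate 3, TTg_HF replicate 2 or TTg_HF replicate 3, with adjusted p-values up to 0.132.

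The 11 genes differed in where Ctrl_HF stood relative to Ctrl. The contrast of Ctrl_HF with Ctrl called 458 of 12670 genes (3.61%). It shares the Ctrl_HF libraries with the contrast described here, so a high or low Ctrl_HF library enters both, in opposite directions. In that contrast Ky had a log2 fold change of -2.72 and Mlf1 of -1.59, and both passed. Lox, at 1.99, Cyp1b1, at 1.37, Slc7a1, at 0.52, and Scn4a, at -0.84, passed as well. Tbx5 (-0.28), Papln (-0.52), Ptp4a3 (-0.15), AA465934 (-0.44) and Myo19 (0.17) did not.

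On chromosome 11 lay 3 of the 11 genes, Scn4a and a pair of falls 1.586 Mb apart. AA465934, annotated as a processed transcript, was at 2.05, 1.05 and 2.23 CPM in TTg_HF and 22.7, 10.5 and 23.98 CPM in Ctrl_HF. It fell by 3.45 (SE 0.39, adjusted p = 0.0227), was at 21.8 to 31.8 CPM in Ctrl, and lies at chr11:83291699-83294632 on the plus strand, where it overlaps the small nucleolar RNA gene Snord7 on the same strand. Myo19, a myosin that moves mitochondria, was at 7.33, 7.06 and 6.10 CPM in TTg_HF and 15.7, 15.5 and 22.01 CPM in Ctrl_HF. It fell by 1.38 (SE 0.21, adjusted p = 0.0369), also below the Ctrl range of 12.1 to 19.03 CPM, and lies at chr11:84880148-84911226 on the plus strand. It overlaps Pigw and Znhit3 on the other strand, and the sources used here do not say whether counting used strand, so reads of these neighbours may be shared.

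The stretch from AA465934 to Myo19, which was chosen after its values were seen, held 20 tested genes. The groups did not overlap in 5 of them, 1 above and 4 below, and 7 had an unadjusted p under 0.05. Over all tested genes these shares were 18.8% without overlap and 14.3% with such a p. AA465934 and Myo19 bound the stretch and are in both counts, so the counts cannot be compared evenly with those shares. Aatf, an apoptosis-antagonising transcription factor, was at 9.09, 8.96 and 10.8 CPM in TTg_HF and 14.1, 21.3 and 13.9 CPM in Ctrl_HF (-0.77, adjusted p = 0.125). Pigw, an enzyme of glycosylphosphatidylinositol anchor synthesis, was at 5.72, 3.27 and 4.69 CPM against 5.75, 9.07 and 7.65 CPM (-0.73, adjusted p = 0.217). Its nearest libraries, at 5.72 and 5.75 CPM, lay closer than the worth of 1 count. Mmp28, a metalloproteinase, differed in the other direction, at 6.01, 6.64 and 9.03 CPM against 2.60, 3.07 and 3.01 CPM (1.32, adjusted p = 0.0861). Chromosome 11 as a whole had 19 of 1031 tested genes (1.84%) with an unadjusted p under 0.001, against 116 of 12670 (0.916%) over all chromosomes, and chromosome 13 had 9 of 459 (1.96%).

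Promoters were searched for the binding motifs of the 4 factors, because the 11 genes moved with a transgene that encodes transcription factors. RefSeq (GRCm38.p6) gave windows of 250 bases before to 50 bases after the start for 8 of the 11 genes, 9 windows in all. The motifs were AGATAA for GATA factors, AGGTGT for T-box factors, CATCTG for E-box factors such as Hand2, and the MEF2 motif, each on both strands. None of these matches overlapped another. Of 32851 promoter windows of the same length, 11.2% held the GATA letters, 13.7% the T-box letters, 17.2% the E-box letters, 0.557% the MEF2 motif, and 36.1% at least 1 of them. Of the 9 windows, those of Myo19 and Cyp1b1 held the T-box letters, both on the strand opposite the gene, 26 and 23 bases after the start, and the others held none. A match of these letters is a description and not a binding site. Shown are a rise that stayed below Ctrl (Ky), a rise above Ctrl (Papln) and a fall whose window held a match (Cyp1b1), each read 5′ to 3′ on the strand of the gene. Capitals mark the T-box match, and a window without capitals held no match. The windows are chr9:102505888-102506187 (plus strand), chr12:83763384-83763683 (plus strand) and chr17:79715012-79715311 (minus strand).
Ky: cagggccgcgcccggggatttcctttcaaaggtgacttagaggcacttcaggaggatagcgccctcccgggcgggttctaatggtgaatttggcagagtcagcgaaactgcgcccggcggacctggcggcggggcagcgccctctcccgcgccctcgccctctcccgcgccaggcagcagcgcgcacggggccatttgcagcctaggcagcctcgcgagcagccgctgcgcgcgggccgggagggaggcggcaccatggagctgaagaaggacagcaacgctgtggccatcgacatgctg
Papln: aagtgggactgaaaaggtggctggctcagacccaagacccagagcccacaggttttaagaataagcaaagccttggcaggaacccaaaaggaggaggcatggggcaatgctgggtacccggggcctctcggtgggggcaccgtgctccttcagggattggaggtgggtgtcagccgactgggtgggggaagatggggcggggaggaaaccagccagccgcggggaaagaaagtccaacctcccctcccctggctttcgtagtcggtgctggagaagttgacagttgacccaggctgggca
Cyp1b1: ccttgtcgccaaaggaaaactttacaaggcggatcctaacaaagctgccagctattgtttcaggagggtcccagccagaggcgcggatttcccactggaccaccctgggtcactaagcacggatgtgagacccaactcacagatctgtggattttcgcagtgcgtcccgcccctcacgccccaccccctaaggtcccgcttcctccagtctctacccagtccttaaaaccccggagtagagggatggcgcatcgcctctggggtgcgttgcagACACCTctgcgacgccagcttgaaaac

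Some genes just outside the threshold are given here as values. Fam174b, a membrane protein, was at 233, 246 and 242 CPM in TTg_HF and 171, 161 and 175 CPM in Ctrl_HF (0.51, adjusted p = 0.0508). Fgf16, a fibroblast growth factor of the heart, was at 18.03, 16.5 and 17.1 CPM against 8.90, 5.56 and 9.50 CPM (1.10, adjusted p = 0.0508). Both overlapped their Ctrl ranges, as did Slf1, a DNA repair factor (0.68, adjusted p = 0.0640), while Efnb3, the ephrin B3 ligand (0.50, adjusted p = 0.0608), and Abhd18 (0.88, adjusted p = 0.0720) lay below Ctrl. On the lower side stood Gfod1 (-0.75), Tmem144 (-0.57) and Ankrd1 (-1.13), each with an adjusted p of 0.0508. Tmem144 was at 91.8, 101 and 95.0 CPM in TTg_HF and at 141, 143 and 143 CPM in Ctrl_HF. Mical2, an enzyme that oxidises actin, was 0.58 lower (adjusted p = 0.0809), and Dok7, an adaptor of the neuromuscular junction, 0.58 lower (adjusted p = 0.0832).

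Gene lists gave a view of functions. Of 42 lists, 22 described biology, 14 cell types and 6 technical variation, with 603 tested genes among them. The genes past the threshold in any list were Tbx5, Ky, Papln, Lox, Ptp4a3 and Cyp1b1, and no list had more than 2. For each list the medians and the counts of members whose groups do not overlap are therefore given as descriptions, to be read beside the median of all tested genes (-0.00097 on the log2 scale) and the shares of 9.31% above and 9.53% below. The sign of the median changed on leaving out 1 of the 6 libraries in 9 of the 22 biology lists, 6 of the 14 cell type lists and 3 of the 6 technical lists, so a median near 0 gives no direction. In bulk tissue fewer cells of a type and less RNA per cell cannot be told apart.

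**Figure D4:**
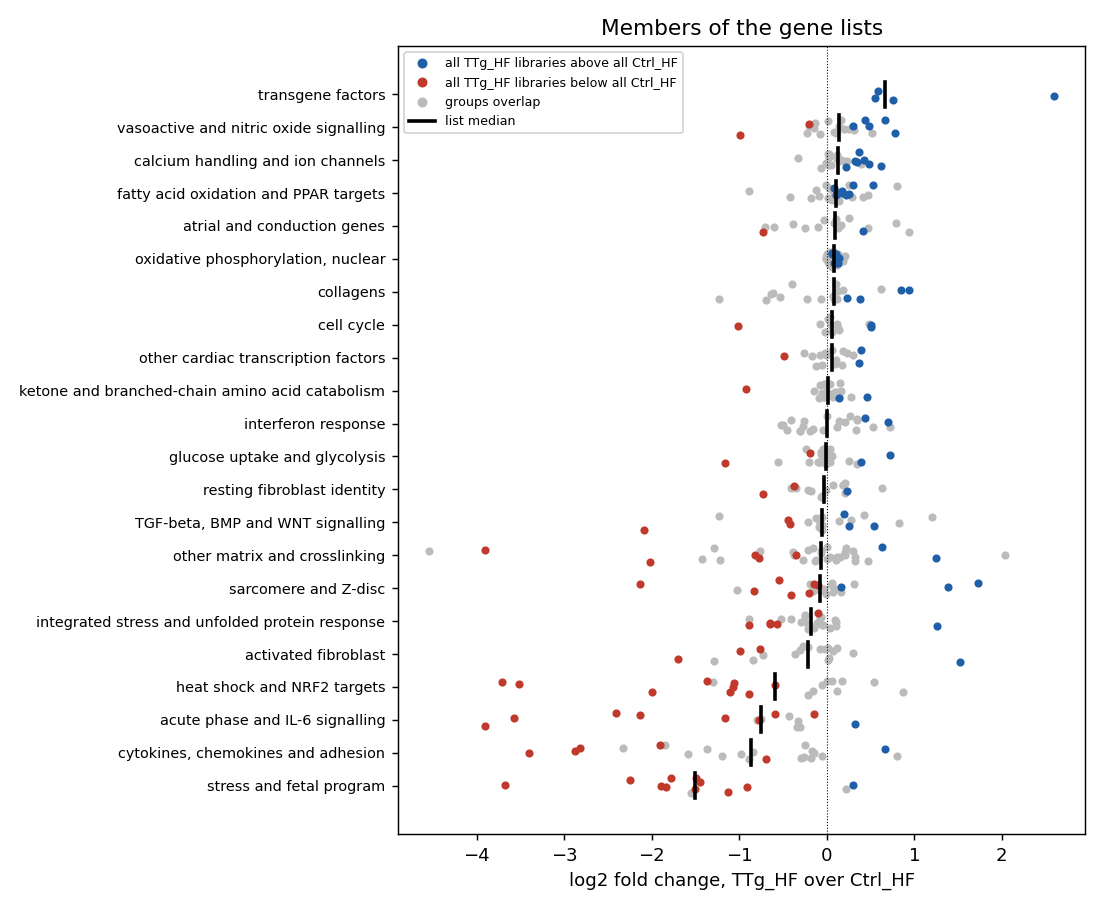
Log2 fold change of TTg_HF over Ctrl_HF (horizontal) for the tested members of the 22 biology lists (vertical), coloured by whether all TTg_HF libraries lie above (blue) or below (red) all Ctrl_HF libraries or the groups overlap (grey), with a black bar at the list median. The stress and fetal program has the lowest median, -1.50, and the transgene factors the highest, 0.67.

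The stress and fetal program holds genes that strained cardiomyocytes switch on. Of its 13 tested members 0 passed the threshold, 10 lay below Ctrl_HF in every TTg_HF library, 1 lay above, and the median log2 fold change was -1.50. Ankrd1, a sarcomeric and nuclear protein induced by stretch, was at 1677, 1548 and 1533 CPM in TTg_HF and 2558, 4319 and 3553 CPM in Ctrl_HF. Mt2, a metal-binding metallothionein, was at 11.6, 19.9 and 16.8 CPM against 46.1, 323 and 257 CPM (-3.68, adjusted p = 0.132). Xirp2, an actin-binding protein of the intercalated disc, was at 588, 603 and 535 CPM against 631, 2496 and 1769 CPM (-1.50, adjusted p = 0.210). In Mt2 and Xirp2 Ctrl_HF replicate 1 lay much nearer to TTg_HF than to the other Ctrl_HF libraries. Nppb, the B-type natriuretic peptide, was at 241, 151 and 63.3 CPM in TTg_HF and 364, 882 and 442 CPM in Ctrl_HF (-1.89, adjusted p = 0.216). Myh7, the fetal myosin heavy chain of mouse ventricle, overlapped between the groups, at 1356, 1199 and 1551 CPM against 1765, 1540.2 and 1390.4 CPM. Fhl2, a LIM-domain protein of cardiomyocytes, was the member above, at 1203, 1422 and 1379 CPM against 1148, 958 and 1144 CPM (0.30, adjusted p = 0.186). DESeq2 on all libraries, where 2.68% of all genes passed, called 9 lower of 13. Without Ctrl_HF replicate 1, where 5.16% of all genes passed, the list had 7 lower and 0 higher calls of 14 tested, with a median of -1.89. Without Ctrl_HF replicate 2 it had 1, and without Ctrl_HF replicate 3, without any 1 TTg_HF library, or with no low-count filter it had 0. The 7 calls were those of the fit without the library that lay next to TTg_HF on the first component, while the 9 of DESeq2 kept it. The cause of these differences was not tested. The median stayed between -1.89 and -1.24 without any 1 of the 6 libraries.

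Heat shock and acute phase genes were described in the same way. Of 19 heat shock and NRF2 target genes 0 passed, 9 lay below and 0 above, with a median of -0.59. Cryab, the small heat shock protein of muscle, was at 1005, 898 and 855 CPM in TTg_HF and 1179, 2173 and 1737 CPM in Ctrl_HF (-0.88, adjusted p = 0.116). Hspb1, another small heat shock protein, was at 158, 162 and 131 CPM against 200.5, 972 and 626 CPM (-1.99, adjusted p = 0.191). Srxn1, sulfiredoxin, an antioxidant enzyme, was more even, at 32.98, 26.2 and 29.4 CPM against 70.9, 65.5 and 47.8 CPM (-1.06, adjusted p = 0.0940). Of 15 acute phase and IL-6 signalling genes 0 passed, 8 lay below and 1 above, with a median of -0.75. Lrg1, a secreted glycoprotein, was at 29.5, 33.2 and 34.0 CPM in TTg_HF and 44.2, 52.3 and 68.7 CPM in Ctrl_HF (-0.77, adjusted p = 0.0940). Stat3, the transcription factor downstream of IL-6, was at 208, 201 and 202 CPM against 262, 379 and 281 CPM (-0.59, adjusted p = 0.101). Socs3, the feedback inhibitor of that pathway, was at 6.45, 6.32 and 3.75 CPM against 18.8, 132 and 46.8 CPM (-3.58, adjusted p = 0.136). Bcl3, a nuclear regulator of NF-kB, was at 2.79, 2.53 and 1.76 CPM against 5.61, 18.4 and 7.30 CPM (-2.14, adjusted p = 0.0987). Without Ctrl_HF replicate 1, members past the threshold were 4 lower and 1 higher of the heat shock list, and 7 lower of the acute phase list. Of all genes 5.16% passed in that fit. Without any 1 of the other 5 libraries both lists had 0. With all libraries kept, DESeq2 called 8 lower of the heat shock list and 7 lower of the acute phase list, beside 2.68% of all genes. With no low-count filter, 1 and 3 lower members passed, beside 0.544% of all genes.

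Cytokine, chemokine and adhesion genes gave 0 calls among 22 tested members, with 5 below, 1 above and a median of -0.87. Lcn2, the iron-binding lipocalin, was at 1.47, 2.21 and 4.22 CPM in TTg_HF and 6.16, 40.7 and 38.8 CPM in Ctrl_HF (-3.41, adjusted p = 0.120). Selp, the P-selectin of activated endothelium, was at 1.03, 0.738 and 0.704 CPM against 3.01, 13.01 and 2.43 CPM (-2.88, adjusted p = 0.132). Neutrophil markers are given beside these genes. Of the 8 markers 4 were tested and 3 lay below. The sum of all 8 was 3.05 to 6.45 CPM in TTg_HF and 11.9 to 14.6 CPM in Ctrl_HF. S100a9, a calcium-binding protein of neutrophils, was at 0.733, 0.632 and 0.938 CPM against 3.15, 3.22 and 3.59 CPM (-2.10, adjusted p = 0.108). In Ctrl, Selp was at 0.469 to 1.15 CPM and S100a9 at 0.352 to 1.85 CPM. Both genes passed the low-count filter only through the Ctrl_HF libraries. Genes that enter in this way are bound to lie low in TTg_HF, so the count below cannot be weighed evenly. The part of neutrophils in the result was not tested. Macrophage markers summed to 395 to 450.4 CPM in TTg_HF and 394 to 531 CPM in Ctrl_HF, with 0 of 13 outside the overlap. An unadjusted p under 0.05 was reached by 2 higher and 0 lower members. Their median was -0.028, but 0.19 without Ctrl_HF replicate 1, where 2 higher members passed, and -0.16 without Ctrl_HF replicate 3. Interferon response genes had a median of -0.0029 over 23 tested members, with 2 above and 0 below, but the median was 0.50 without Ctrl_HF replicate 1 and -0.28 without Ctrl_HF replicate 2. Oas1a, an antiviral enzyme, was at 2.49, 2.11 and 2.23 CPM against 1.78, 0.731 and 1.62 CPM (0.70, adjusted p = 0.411).

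**Figure D5:**
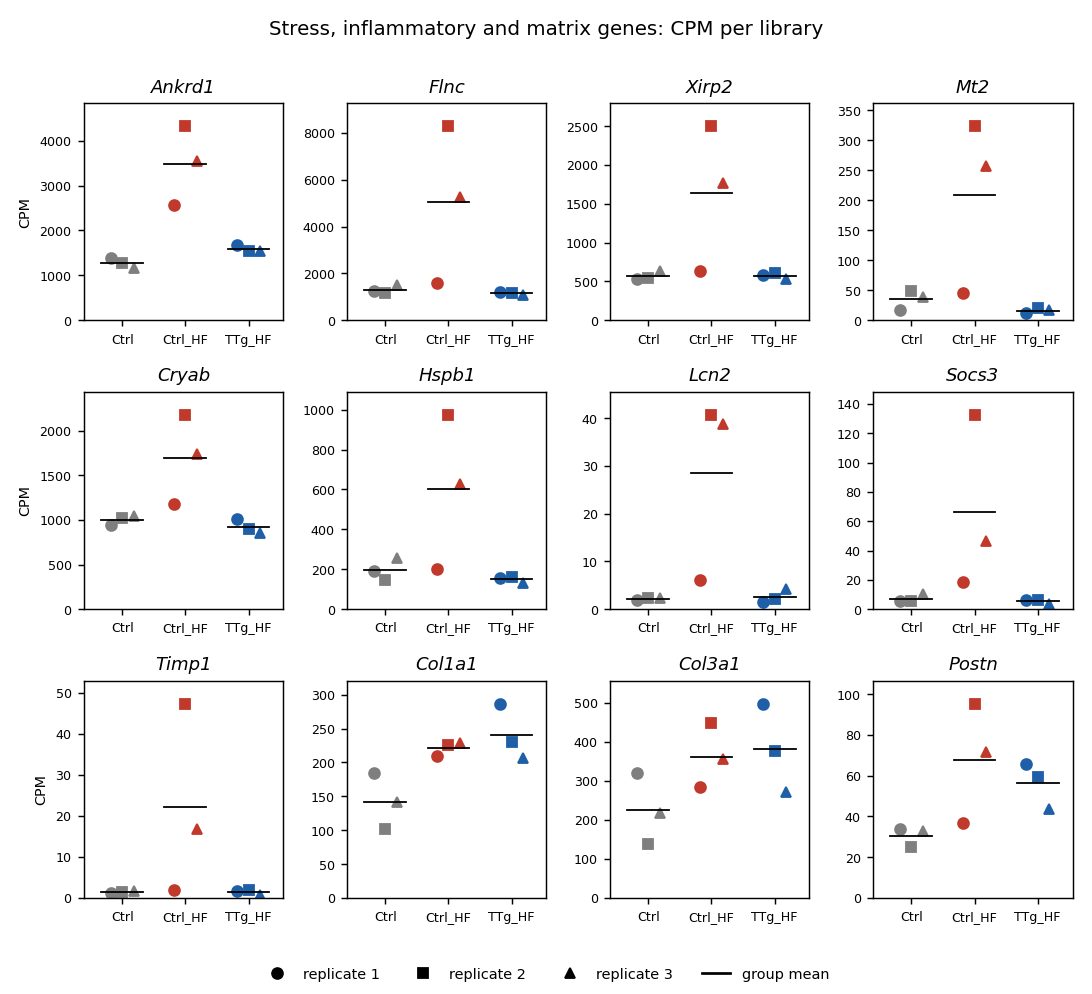
CPM per library (vertical, linear from 0) of 12 stress, inflammatory and matrix genes, chosen after their values were seen, in Ctrl, Ctrl_HF and TTg_HF (horizontal), with a marker shape for each replicate and a line at the group mean. In Flnc, Xirp2, Mt2, Hspb1, Lcn2 and Timp1 Ctrl_HF replicate 1 lies near the TTg_HF libraries, and in Col1a1, Col3a1 and Postn the groups overlap.

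Fibrosis genes were of interest because the series title names fibrosis. Of 19 tested collagen genes 0 passed, 4 lay above and 0 below, with a median of 0.077. The sign of that median rested on single libraries: it was -0.071 without Ctrl_HF replicate 1, -0.11 without TTg_HF replicate 1 and 0.22 without TTg_HF replicate 3. Without Ctrl_HF replicate 1 there were 1 higher and 2 lower calls, beside 5.16% of all genes, and under DESeq2 2 higher, beside 2.68%. Col1a1, the main fibrillar collagen chain, was at 286, 230.0 and 207 CPM in TTg_HF and 209.8, 225 and 229 CPM in Ctrl_HF, which differed by 0.12 on the log2 scale (SE 0.19, adjusted p = 0.817). Col3a1, its partner in the heart, was at 497, 377 and 270.0 CPM against 283, 447 and 354 CPM (0.08, SE 0.34, adjusted p = 0.943). Both overlapped, and their standard errors left room for changes in either direction. Col14a1, a fibril-associated collagen, lay above, at 41.9, 35.8 and 32.5 CPM against 24.5, 21.2 and 15.4 CPM (0.85, adjusted p = 0.176). Col12a1, of the same class, was at 3.08, 3.58 and 2.93 CPM against 3.29, 11.7 and 7.76 CPM (-1.23, adjusted p = 0.186).

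Of 35 non-collagen matrix genes Papln rose, Lox fell, 2 lay above, 5 below, and the median was -0.070. Timp1, an inhibitor of metalloproteinases, was at 1.61, 1.90 and 0.821 CPM in TTg_HF and 2.05, 47.2 and 16.8 CPM in Ctrl_HF (-3.91, adjusted p = 0.186). Tnc, tenascin C, a protein of injured matrix, was at 2.49, 1.05 and 1.76 CPM against 2.19, 98.3 and 21.2 CPM. Both rested on Ctrl_HF replicates 2 and 3. Of 19 activated fibroblast genes 0 passed, 1 lay above and 3 below, with a median of -0.22. Thbs4, thrombospondin 4, was at 10.99, 7.38 and 9.73 CPM against 19.6, 43.3 and 27.9 CPM (-1.70, adjusted p = 0.0720). Lrrc15, a marker of matrix-making fibroblasts, stood in the other direction, at 30.3, 32.99 and 22.6 CPM against 13.97, 7.75 and 8.22 CPM (1.52, adjusted p = 0.0940). Meox1, a homeobox switch of fibroblast activation, was at 16.7, 12.6 and 6.33 CPM in TTg_HF and 16.3, 29.1 and 18.4 CPM in Ctrl_HF (-0.85, SE 0.35, adjusted p = 0.321), and the groups overlapped. Postn, periostin, overlapped as well, at 65.7, 59.5 and 43.5 CPM against 36.7, 95.2 and 71.8 CPM.

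Resting fibroblast identity genes, 16 tested, had 1 above, 2 below, log2 fold changes from -0.73 to 0.63 and a median of -0.031. That median was 0.14 without Ctrl_HF replicate 1 and -0.18 without Ctrl_HF replicate 2, so the list gave no direction. The members named here, Medag and Ddr2, had its lowest unadjusted p and were those below. Medag was at 16.3, 17.2 and 13.1 CPM in TTg_HF and 19.99, 29.0 and 28.5 CPM in Ctrl_HF (-0.73, adjusted p = 0.116). Ddr2, a collagen receptor of fibroblasts, was at 78.6, 76.5 and 68.6 CPM against 91.6, 103 and 95.7 CPM (-0.37, adjusted p = 0.185). Of 21 TGF-beta, BMP and WNT genes 3 lay above and 3 below, with log2 fold changes from -2.09 to 1.21 and a median of -0.056. That median was 0.016 without Ctrl_HF replicate 1 and 0.048 without Ctrl_HF replicate 3, so the list gave no direction. An unadjusted p under 0.05 was reached by 3 higher and 4 lower members. The receptors Tgfbr1 and Tgfbr2, named because their unadjusted p was the lowest of the list, were among those below. Tgfbr2 was at 88.4, 86.4 and 82.6 CPM in TTg_HF and 98.7, 128 and 118 CPM in Ctrl_HF (-0.42, adjusted p = 0.127), and Tgfbr1 at 44.9, 37.3 and 37.2 CPM against 49.8, 60.2 and 51.7 CPM (-0.44, adjusted p = 0.150). In both receptors the groups did not overlap, and neither passed the threshold.

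Of 25 sarcomere and Z-disc genes tested, Ky rose, 3 lay above (Ky included), 7 lay below, and the median was -0.072. Without Ctrl_HF replicate 1 there were 3 higher and 4 lower calls, beside 5.16% of all genes. Under DESeq2 there were 2 higher and 4 lower, beside 2.68%. Des, desmin, the intermediate filament of muscle, was at 1530.2, 1551 and 1682 CPM in TTg_HF and 1989, 2710.3 and 2232 CPM in Ctrl_HF (-0.54, adjusted p = 0.0832). Flnc, filamin C, which anchors the Z-disc, was at 1230.4, 1148 and 1065 CPM against 1612, 8277 and 5266 CPM (-2.14, adjusted p = 0.172). Actn2, the Z-disc alpha-actinin, was at 2257, 2279 and 2298 CPM against 2553, 2844 and 2482 CPM (-0.21, adjusted p = 0.186). Mylk4, a kinase of myosin light chains, was at 112, 174 and 181 CPM against 73.0, 60.7 and 45.6 CPM (1.39, adjusted p = 0.0987). The thick filament gene Myh6 overlapped, at 26283, 27923 and 26939 CPM against 28021, 25366 and 23928 CPM.

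Calcium handling and ion channel genes had no member below: of 24 tested, 7 lay above and 0 passed, with a median of 0.13. Atp2a2, which pumps calcium back into the sarcoplasmic reticulum, was at 15839, 15938 and 17113 CPM in TTg_HF and 14346, 13711 and 13889 CPM in Ctrl_HF. That is a difference of 0.22 (SE 0.05, adjusted p = 0.108). Its inhibitor Pln, phospholamban, was at 641, 658 and 625 CPM against 575, 455 and 465 CPM (0.36, adjusted p = 0.260). Kcnh2 and Kcnq1 encode potassium channels of repolarisation. Kcnh2 was at 62.4, 69.3 and 83.1 CPM against 49.8, 36.6 and 53.2 CPM (0.62, adjusted p = 0.142), and Kcnq1 at 40.6, 39.6 and 33.1 CPM against 28.1, 31.1 and 25.0 CPM (0.43, adjusted p = 0.154). In both the groups stayed apart, by a narrow margin.

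Cardiac transcription factors outside the transgene showed no call among 17 tested, with 2 above, 1 below and a median of 0.054. Myocd, myocardin, a coactivator of muscle genes, was at 119, 118 and 101 CPM in TTg_HF and 93.0, 91.5 and 73.4 CPM in Ctrl_HF (0.39, adjusted p = 0.218). Tbx3, a transcriptional repressor made in the conduction system, was at 29.8, 28.5 and 25.7 CPM against 44.4, 30.0 and 42.7 CPM (-0.48, adjusted p = 0.184). Of 16 atrial and conduction genes 1 lay above and 1 below, with a median of 0.097. The member above was Kcnj5, a subunit of the atrial acetylcholine-activated potassium channel, at 71.5, 69.2 and 81.3 CPM against 61.8, 42.6 and 62.4 CPM (0.41, adjusted p = 0.209). Its partner Kcnj3 was at 80.8, 58.8 and 74.6 CPM against 60.0, 26.6 and 37.0 CPM (0.79, adjusted p = 0.221), and the groups overlapped by the lowest TTg_HF library. The member below was Nppa, the atrial natriuretic peptide, at 73.0, 59.4 and 47.4 CPM against 83.8, 73.1 and 139 CPM (-0.73, adjusted p = 0.421). Its groups were barely apart, at 73.0 and 73.1 CPM in the nearest libraries.

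No energy metabolism list had a gene past the threshold. Of 32 fatty acid oxidation and PPAR target genes 0 passed, 10 lay above and 0 below, with a median of 0.10. Decr1, a reductase of unsaturated fatty acid oxidation, was at 716, 646 and 673 CPM in TTg_HF and 587, 555 and 569.9 CPM in Ctrl_HF (0.25, adjusted p = 0.207). Ech1, an isomerase of the same route, was at 1605, 1531 and 1585 CPM against 1368, 1345 and 1337 CPM (0.22, adjusted p = 0.212). Of 36 nuclear genes of oxidative phosphorylation 8 lay above and 0 below, with log2 fold changes from -0.0078 to 0.21 and a median of 0.078. Ndufv2 and Sdhd, subunits of complexes I and II, had log2 fold changes of 0.12 and 0.14 (adjusted p = 0.369 and 0.323). The 13 genes of the mitochondrial genome had a median of 0.11, with 2 above and 0 below.

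Glucose uptake and glycolysis genes, 25 tested, had a median of -0.014, with 2 above and 2 below. Slc2a1, the basal glucose transporter, was at 6.74, 7.48 and 5.04 CPM in TTg_HF and 11.4, 19.3 and 12.7 CPM in Ctrl_HF (-1.16, adjusted p = 0.0940), and TTg_HF also lay below the Ctrl range of 12.1 to 15.7 CPM. Of 24 ketone and branched-chain amino acid genes 2 lay above and 1 below, with a median of 0.016. The member below, Abat, the GABA transaminase, was at 2.79, 5.37 and 6.92 CPM in TTg_HF, 8.22, 10.7 and 10.3 CPM in Ctrl_HF and 55.3 to 70.8 CPM in Ctrl (-0.92, adjusted p = 0.161). Ppm1k, the phosphatase that activates branched-chain keto acid breakdown, was at 24.04, 25.7 and 28.4 CPM against 21.5, 17.0 and 18.3 CPM (0.46, adjusted p = 0.163).

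Vasoactive and nitric oxide genes were of interest because L-NAME blocks nitric oxide synthase in both groups. Of 21 tested, Ptp4a3 rose and Cyp1b1 fell, 5 lay above, 2 below, and the median was 0.14. Agtr1a, the angiotensin II receptor, was at 20.4, 28.5 and 31.7 CPM in TTg_HF and 18.1, 14.2 and 14.9 CPM in Ctrl_HF (0.78, adjusted p = 0.112). Gucy1a3, a subunit of the nitric oxide receptor guanylate cyclase, was at 34.4, 29.6 and 26.2 CPM against 21.5, 19.6 and 23.4 CPM (0.48, adjusted p = 0.178). Integrated stress and unfolded protein genes, 24 tested, had 1 above, 5 below and a median of -0.18. Atf4, the main transcription factor of the integrated stress response, was at 81.2, 84.9 and 68.6 CPM against 122, 148 and 98.3 CPM (-0.65, adjusted p = 0.127). Slc7a5, an amino acid transporter and target of that factor, overlapped between the groups (-0.89, adjusted p = 0.241). Of 13 cell cycle genes 2 lay above and 1 below, with a median of 0.064. Cdkn1a, the inhibitor p21, was the member below, at 70.4, 59.2 and 53.4 CPM against 128, 125 and 115 CPM (-1.01, adjusted p = 0.208).

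Lists of cell types and technical variation held no gene past the threshold. Smooth muscle markers, 7 tested, had 1 above, 3 below and a median of -0.37, and their sum was 1768 to 1894 CPM in TTg_HF and 2245 to 2901 CPM in Ctrl_HF, most of it Des. Endothelial markers (11 tested, median -0.12), lymphatic markers (6, -0.19), pericyte markers (8, 0.031) and endocardial markers (6, -0.051) had at most 2 members outside the overlap in either direction. Red cell genes, 8 tested, had 3 below and a median of -0.82, with a sum of 204 to 856 CPM in TTg_HF and 796 to 964 CPM in Ctrl_HF. Circadian clock genes, 15 tested, had 3 above, 0 below and a median of 0.16, which was -0.012 without Ctrl_HF replicate 3, 0.0028 without TTg_HF replicate 1 and 0.30 without Ctrl_HF replicate 1. Per3, a clock repressor, was at 17.2, 18.9 and 18.4 CPM in TTg_HF and 8.49, 8.77 and 11.5 CPM in Ctrl_HF (0.92, adjusted p = 0.105), and the time of day of sampling is not given in the labels. Immediate early genes summed to 660.2 CPM in Ctrl_HF replicate 3 and 1332 CPM in TTg_HF replicate 3, against 2902 to 3942 CPM in the other libraries of the 2 groups, so they split by library and not by group. Schwann cell markers (5 tested, median -0.057), sex genes (4, 0.051) and epicardial markers (2, -1.20) had no member outside the overlap, and neither did Pparg, the 1 adipocyte marker tested (0.10). Ighm, the immunoglobulin heavy chain and the 1 lymphocyte marker tested, lay above, with a log2 fold change of 1.19. Ribosomal protein genes, 24 tested, had a median of -0.10, with 0 above and 3 below. The part of these differences in the results above was not tested.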

How the data were processed

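RNA from mouse ventricles was depleted of ribosomal RNA and made into directional libraries, per the labels' protocols. The authors deposited whole-number counts per gene symbol for 9 libraries, beside a normalized signal, which is the count times 1 factor per library, and the log2 of that normalized value plus 1, per the file headers and the values. Per the submitters' processing notes, reads were placed on mm10. No source used here names the aligner or the counting program, or says whether strand was used. The counts were the values tested, and the authors' factors served in an alternative. The largest deviation of the deposited log2 values from that formula was 0.0050.

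Genes were kept by edgeR's filterByExpr (minimum count 10, minimum total 15), scaled by TMM and fitted by edgeR 4.0.16 (R 4.3.3) with the robust quasi-likelihood F test over the 3 groups of 3 libraries. The contrast was TTg_HF minus Ctrl_HF, p-values were adjusted by Benjamini-Hochberg over all 12670 tested genes, and genes with an adjusted p under 0.05 were called. CPM values are TMM-normalised. The SE is the log2 fold change over the square root of F. The median biological coefficient of variation was 0.131. Replicates of a group differed by more than sampling noise. Chi-square per degree of freedom was 15.2 to 23.0 in Ctrl_HF, 4.50 to 8.15 in TTg_HF and 5.66 to 13.3 in Ctrl. The fit shares 1 estimate of the spread per gene over the 3 groups, so it does not follow the wider spread of Ctrl_HF. An exact permutation test of 3 against 3 libraries cannot go below 0.1 (two-sided) and was not used. The scripts were tested on simulated data.

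Named genes were the 4 factors, Tcf21 and Meox1, called genes of at least 1 CPM with no overlap between groups (up to 12 in each direction, filled by lowest unadjusted p), and the 2 lowest-p members of each biology list and 1 of each other list. Others were named after their values were seen. The comparison, the lists and the rule were chosen with earlier results of these data known. Coordinates on GRCm38, the assembly behind mm10, come from GENCODE vM21, which matched 47077 rows (94.9%). Of the rows 29540 held no count, and 26 had date-like names in place of symbols. Alternatives were other scalings, no low-count filter, a mean of at least 1 CPM, DESeq2 1.42.0, limma 3.58.1 (voom), the 6 libraries alone, a replicate block, and leaving out each library. Figures were drawn with matplotlib 3.10.9.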

Additional observations from a re-analysis of the deposited data

How the results depend on the processing

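The 11 calls were 6 higher and 5 lower, and 6 of them belonged to a gene list. In the same order, no low-count filter gave 109, 47, 62 and 22, DESeq2 gave 339, 104, 235 and 68, limma-voom gave 4, 4, 0 and 3, and the 6 libraries alone gave 0, 0, 0 and 0. Without a TMM factor 16 genes passed, 10 of them higher. Leaving out 1 library gave 2 to 665 calls, 2 to 220 higher and 0 to 445 lower, with 2 to 75 list members. DESeq2's size factors and a mean of at least 1 CPM gave 11 calls each, and the authors' factors, an alternative chosen after seeing the data, gave 12. Same-numbered libraries did not pair throughout: their deviations correlated at 0.028, 0.012 and 0.177 for replicates 1, 2 and 3. Replicate 3 of each group correlated best with replicate 3 of the other. Ctrl_HF replicate 2, in contrast, correlated best with TTg_HF replicate 1, at 0.130. Whether same-numbered libraries share a batch was not tested. The fit with a replicate block called 12 genes (7 higher, 5 lower, 8 list members), of which 5 were among the 11. Leaving out 1 library moved Tcf21 between log2 fold changes of -0.018 (without Ctrl_HF replicate 1, a reversed sign, adjusted p = 0.980) and 0.16. The causes of these shifts were not tested. At these depths 1 count was worth 0.105 to 0.147 CPM, so values near 1 CPM rest on few counts.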
